A study of Homo sapiens with 18 samples.

Results

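The genes described here are the alarmin gene IL33 and the decoy receptor gene IL13RA2, together with cytokine and receptor genes of the IL1, IL6, IL15 and IL4/IL13 systems. They were named in advance of this work with earlier results of the same libraries in view. IL33, IL13RA2, IL1A, IL1B, IL6, IL15, LIF, IL6ST, IL4R and IL13RA1 each matched 1 row by symbol, which gives 10 of the 30954 gene IDs in the H2052 count table. H2052 (NCI-H2052) is a human pleural mesothelioma line with a Hippo pathway mutation. VT107 is a small molecule that blocks palmitoylation of the TEAD transcription factors. The 12 libraries came from 4 groups of 3: parental cells and NF1 mutant cells, each kept for 24 h in 1 µM VT107 or in the matching volume of DMSO, in RPMI with serum. NF1 mutant cells were made by lentiviral Cas9 and guide RNAs against NF1, the gene of a RAS inhibitor. Whether they are 1 clone or a pool is not given in the sources used here.

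IL33 is a nuclear cytokine of the IL1 family that is released from damaged barrier cells and acts through the receptor subunit IL1RL1. IL1A and IL1B, the other IL1 family genes here, signal through IL1R1 and its accessory chain to NF-kB. IL13RA2 binds IL13 with a short cytoplasmic tail and is known as a decoy, whereas IL4R and IL13RA1 form the receptor that signals through STAT6. IL6 and LIF bind receptors that share the gp130 chain, the product of IL6ST, and signal through JAK1 and STAT3. IL15 acts on lymphocytes through the common gamma chain. Mesothelial cells are known to make IL6, IL1 and chemokines when they are stimulated.

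Parental libraries held 10950284 to 13418485 gene counts each and NF1 mutant libraries 3285363 to 5489092, so that a gene with few counts is measured less precisely in the mutant. NF1 itself had 361 to 867 counts in each parental library and 29 to 89 in each NF1 mutant library. Genotype went together with depth and with the set of libraries, and these cannot be told apart. Libraries 3 of both parental groups stood apart from libraries 1 and 2, and library 1 of NF1 mutant cells in VT107 stood apart from the other two. Parental VT107 libraries 1 and 2 also differed from each other. Between the counts of libraries 1 and 2, the chi-square per degree of freedom was 4.36 in parental DMSO but 49.4 in parental VT107. For library 3 against libraries 1 and 2 it was 57.7 and 55.5 in parental DMSO and 94.4 and 141 in parental VT107. The summed level of 10 mesothelial markers came to 1382 to 4864 CPM (counts per 1000000 gene counts of a library), with KRT5 and MUC16 at 0 in all 12 libraries. In bulk RNA, fewer cells that carry an RNA and less of it per cell cannot be told apart.

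The sequence just before the transcription start of a cytokine gene often holds sites for the factors that induce it, so the 250 bases before the start were read for the genes in the RefSeq promoter table (assembly GRCh38.p14). It holds 7 of the 10 genes, all but IL13RA2, IL15 and LIF. Motifs were searched on both strands for NF-kB, by the letters TGANTCA for AP-1, by GGAATG for TEAD and by TTCNNNGAA for STAT. They were found in 1.73%, 6.57%, 11.9% and 6.57% of all 35116 promoter windows of the same length. The sequences printed are both starts of IL33, which had no match, and 1 start each of IL1A, IL1B, IL6 and IL4R, which each had 1 match (in capitals). A further start of IL1A, not printed, had 2 AP-1 matches. Its window overlaps the printed one, and 1 of the 2 matches is the site marked there. No match overlapped one of another motif. IL33 is on the plus strand at chr9:6214899-6215148 and chr9:6215557-6215806, IL1A on the minus strand at chr2:112784494-112784743, IL1B on the minus strand at chr2:112836780-112837029, IL6 on the plus strand at chr7:22726950-22727199 and IL4R on the plus strand at chr16:27313724-27313973.
IL33, start 1: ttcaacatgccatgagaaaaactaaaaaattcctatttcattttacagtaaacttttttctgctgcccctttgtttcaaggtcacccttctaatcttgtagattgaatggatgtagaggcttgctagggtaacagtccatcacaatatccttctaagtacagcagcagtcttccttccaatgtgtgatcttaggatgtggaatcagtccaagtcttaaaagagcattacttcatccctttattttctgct
IL33, start 2: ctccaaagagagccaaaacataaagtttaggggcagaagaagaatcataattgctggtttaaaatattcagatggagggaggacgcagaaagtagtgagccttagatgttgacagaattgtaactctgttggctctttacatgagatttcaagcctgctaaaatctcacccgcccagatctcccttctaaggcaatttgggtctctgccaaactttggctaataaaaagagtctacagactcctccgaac
IL1A, AP-1 match: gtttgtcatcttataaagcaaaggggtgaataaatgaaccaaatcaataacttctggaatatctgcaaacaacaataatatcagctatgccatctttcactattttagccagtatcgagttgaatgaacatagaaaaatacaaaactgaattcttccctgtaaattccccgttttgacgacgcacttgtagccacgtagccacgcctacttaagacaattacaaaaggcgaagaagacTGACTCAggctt
IL1B, STAT match: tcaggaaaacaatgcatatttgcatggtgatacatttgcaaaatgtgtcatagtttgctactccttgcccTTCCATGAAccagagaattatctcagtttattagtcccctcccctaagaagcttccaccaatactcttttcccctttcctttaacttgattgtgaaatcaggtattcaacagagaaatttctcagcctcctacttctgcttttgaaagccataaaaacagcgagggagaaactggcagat
IL6, NF-kB match: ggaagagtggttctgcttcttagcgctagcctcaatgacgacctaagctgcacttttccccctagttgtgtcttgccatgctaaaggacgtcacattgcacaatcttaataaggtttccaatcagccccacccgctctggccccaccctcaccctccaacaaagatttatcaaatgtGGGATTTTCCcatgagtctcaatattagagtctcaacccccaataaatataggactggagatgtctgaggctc
IL4R, NF-kB match: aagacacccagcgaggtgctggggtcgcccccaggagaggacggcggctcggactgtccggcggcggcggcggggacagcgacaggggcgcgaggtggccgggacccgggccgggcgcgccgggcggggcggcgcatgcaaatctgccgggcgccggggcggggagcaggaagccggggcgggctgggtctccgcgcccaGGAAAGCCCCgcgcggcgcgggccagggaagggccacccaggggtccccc
The matches began 12 bases before the start in IL1A, 180 in IL1B, 73 in IL6 and 50 in IL4R. A match is a run of letters and not a bound site, and no factor was mapped in these cells by the counts used here. IL6ST and IL13RA1 had no match to any of the 4 motifs.

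The first question was how VT107 moved IL33, the alarmin gene, in parental cells. IL33 (ENSG00000137033) is on chromosome 9 from 6215805 to 6257983 on the plus strand of hg19, the build of the count tables. Its counts in DMSO were 51, 64 and 699 in libraries 1, 2 and 3, and in VT107 they were 319, 278 and 2815. On the CPM scale that is 4.22, 4.77 and 63.8 in DMSO and 23.9, 22.4 and 212 in VT107. Library 3 was far above libraries 1 and 2 in both groups, so the groups overlap although every VT107 library lay above the DMSO library of its own number. The ratio of VT107 to DMSO CPM was 5.67, 4.69 and 3.32 for numbers 1, 2 and 3. The fitted log2 fold change was 1.82 ± 1.31 (SE, n = 3 per group) without a replicate block and 2.12 ± 0.17 with the library number as a block. Without both number 3 libraries it was 2.48 ± 0.18. Leaving out only 1 of them unbalanced the groups, and gave 4.32 without DMSO library 3 and -0.01 without VT107 library 3.

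IL33 lay lower in NF1 mutant cells in DMSO, and their VT107 libraries again lay above it. The IL33 counts there were 10, 14 and 8 in DMSO and 38, 137 and 83 in VT107. These are 1.82, 3.09 and 2.01 CPM in DMSO and 8.80, 28.5 and 25.3 CPM in VT107. All 3 VT107 libraries lay above all 3 DMSO libraries, with library 1 the lowest of the VT107 group. The fitted log2 fold change was 3.20 ± 0.47 (SE, n = 3 per group) and 3.53 ± 0.27 without VT107 library 1. In order of mean level, IL33 was lowest in NF1 mutant cells in DMSO (2.31 ± 0.69 CPM, SD, n = 3), followed by NF1 mutant cells in VT107 (20.9 ± 10.6), parental cells in DMSO (24.3 ± 34.3) and parental cells in VT107 (86.1 ± 109). The spread over libraries separates only the lowest group from its neighbour.

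IL13RA2, the IL13 decoy receptor gene, was also higher in VT107 within every number, but its library 3 was low where that of IL33 was high. IL13RA2 (ENSG00000123496) is on chromosome X from 114238538 to 114254540 on the minus strand. Its counts in parental cells were 51, 35 and 12 in DMSO and 120, 177 and 46 in VT107 for libraries 1, 2 and 3. As CPM these were 4.22, 2.61 and 1.10 in DMSO and 8.99, 14.2 and 3.46 in VT107. VT107 library 3 fell below DMSO library 1, so the parental groups overlap, and the ratios by number were 2.13, 5.46 and 3.16. The log2 fold change was 1.85 ± 0.65 (SE, n = 3 per group) without the replicate block, 1.81 ± 0.33 with it and 1.92 ± 0.37 without both number 3 libraries.

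IL13RA2 had 23, 16 and 14 counts in NF1 mutant cells in DMSO and 53, 83 and 66 in VT107. As CPM these were 4.19, 3.53 and 3.51 in DMSO and 12.3, 17.3 and 20.1 in VT107, and the groups do not overlap. The log2 fold change was 2.20 ± 0.28 (SE, n = 3 per group) and 2.28 ± 0.26 without VT107 library 1. In contrast to IL33, IL13RA2 had DMSO levels in NF1 mutant cells (3.74 ± 0.39 CPM, SD, n = 3) within the range of parental cells (2.64 ± 1.56). Its order of group means was parental DMSO, NF1 mutant DMSO, parental VT107 (8.90 ± 5.39) and NF1 mutant VT107 (16.5 ± 3.95), and each neighbour in that order overlaps the next.

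**Figure D1:**
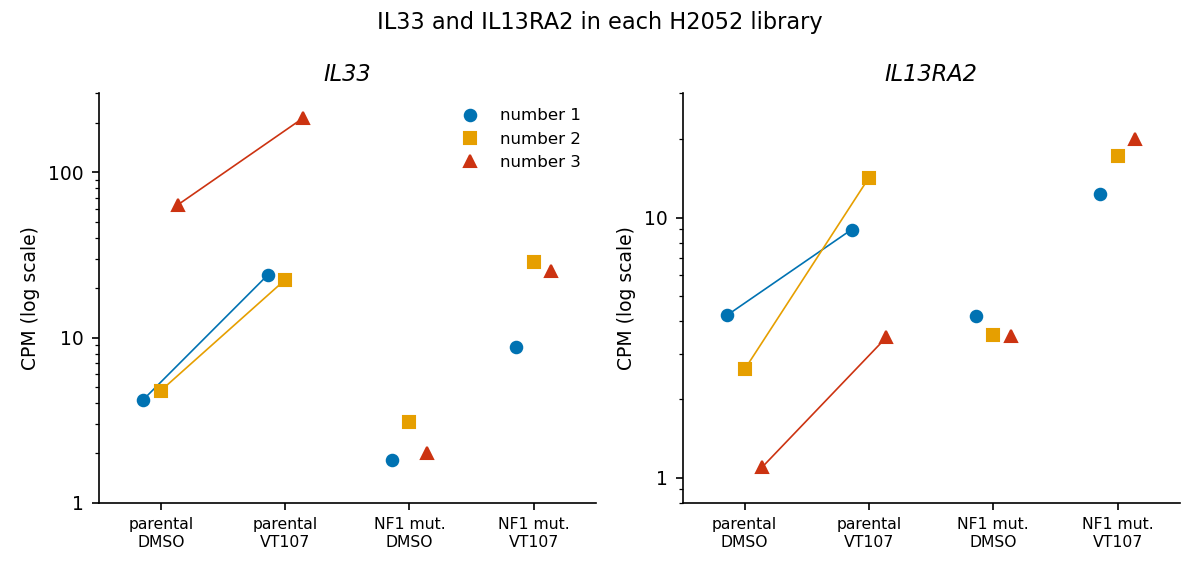
CPM of IL33 (left) and IL13RA2 (right) in each of the 12 H2052 libraries on a log axis, with 1 point per library, colour and shape for the library number, and lines joining parental libraries of the same number. All 3 parental lines slope upward for both genes, with library 3 high for IL33 (63.8 and 212 CPM) and low for IL13RA2 (1.10 and 3.46 CPM).

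The genes were chosen on these libraries, so the calls are a description and nothing is read from their number. Without the block edgeR called 0 of 12891 genes between VT107 and DMSO in parental cells (0%, with 474 at an unadjusted p under 0.05), and 0 of the 9 genes of interest that passed the filter. With the replicate block it called 215 genes (1.67%), of which 109 were higher (0.846%) and 106 lower (0.822%), and among the genes of interest IL33 and IL13RA2 were called higher and none lower. For NF1 mutant cells it called 0 of 11605 genes (0%, with 612 at an unadjusted p under 0.05), and 0 of 7 genes of interest. DESeq2 called 32 and 20 genes in the same comparisons without a block, and IL33 and IL13RA2 were among the latter. In parental cells DESeq2 gave IL33 no adjusted p, and IL13RA2 was not called. Without VT107 library 1 edgeR called 198 genes between these groups, IL33 and IL13RA2 again included. The difference of the VT107 responses, NF1 mutant minus parental, was log2 1.39 ± 1.56 for IL33 and 0.37 ± 0.75 for IL13RA2 (SE), and with the replicate block 0.95 ± 0.40 and 0.41 ± 0.50. edgeR called 0 of 11432 genes in that test (0%, with 78 at an unadjusted p under 0.05), and also 0 with the replicate block (147 at an unadjusted p under 0.05). For IL33 that difference was -1.05 ± 1.21 without parental DMSO library 3, 3.21 ± 1.40 without parental VT107 library 3 and 0.77 ± 0.57 without both.

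IL1A and IL1B, which encode the IL1 agonists, did not separate by treatment. IL1A (ENSG00000115008) is on chromosome 2 from 113531492 to 113542167 on the minus strand. It had 44, 61 and 53 counts in parental cells in DMSO and 48, 66 and 75 in VT107 (3.64, 4.55 and 4.84 CPM, then 3.60, 5.31 and 5.65 CPM), and the groups overlap. NF1 mutant libraries had 16, 11 and 9 counts in DMSO and 4, 12 and 9 in VT107. The log2 fold change after VT107 was 0.23 ± 0.31 in parental cells (SE, n = 3 per group), 0.21 ± 0.24 with the replicate block and 0.25 ± 0.34 without both number 3 libraries. For NF1 mutant cells it was -0.26 ± 0.40, and 0.01 ± 0.41 without VT107 library 1.

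IL1B (ENSG00000125538) is on chromosome 2 from 113587328 to 113594480 on the minus strand, near IL1A. In parental cells it had 334, 472 and 1967 counts in DMSO and 572, 496 and 3256 in VT107, or 27.6, 35.2 and 180 CPM and then 42.9, 39.9 and 245 CPM. Library 3 stood above the others in both groups, as it did for IL33, and within each number the VT107 to DMSO ratio was only 1.55, 1.13 and 1.36. In NF1 mutant cells IL1B had 104, 37 and 81 counts in DMSO and 15, 108 and 113 in VT107, the lowest being VT107 library 1. The log2 fold change after VT107 was 0.44 ± 0.95 in parental cells (0.48 ± 0.10 with the replicate block and 0.52 ± 0.14 without both number 3 libraries) and 0.35 ± 0.67 in NF1 mutant cells (0.81 ± 0.29 without VT107 library 1). Without parental VT107 library 3 the parental value turned to -0.91 ± 0.80.

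IL6, the founding cytokine of the gp130 family (ENSG00000136244, chromosome 7 from 22765503 to 22771621, plus strand, overlapped by AC073072.5 on the opposite strand), was near the limit of detection. It had 4, 13 and 14 counts in parental cells in DMSO and 11, 4 and 14 in VT107, and the groups overlap. All 6 NF1 mutant libraries had 0 counts. For the NF1 mutant groups a floor of 3 counts over the 3 libraries was set, which is 0.214 CPM in DMSO and 0.242 CPM in VT107. The pooled parental level was 3.97-fold above that floor in DMSO and 3.07-fold above it in VT107. These folds leave out the parental spread, as parental libraries ran from 0.33 to 1.28 CPM in DMSO and from 0.32 to 1.05 CPM in VT107. IL6 passed the filter of 0.5 CPM in every library in none of the H2052 comparisons.

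LIF, the other gp130 cytokine gene (ENSG00000128342, chromosome 22 from 30636436 to 30642840, minus strand), is overlapped by MTMR3 and RP1-102K2.6 on the opposite strand. It had 12, 36 and 23 counts in parental cells in DMSO and 65, 18 and 78 in VT107. Numbers 1 and 3 were higher in VT107 and number 2 was lower, which gave a log2 fold change of 1.10 ± 0.55 (SE, n = 3 per group), 1.03 ± 0.48 with the replicate block and 0.85 ± 0.57 without both number 3 libraries. NF1 mutant cells had 6, 1 and 11 LIF counts in DMSO and 0, 14 and 11 in VT107, and the gene was not tested there. IL6ST, the gp130 gene itself (ENSG00000134352, chromosome 5 from 55230923 to 55290772, minus strand), is overlapped by CTD-2031P19.4 on the same strand. IL6ST had 1485, 1479 and 1133 counts in parental DMSO and 1801, 1311 and 1313 in parental VT107. These overlap at 103 to 123 CPM and 98.8 to 135 CPM, with a log2 fold change of 0.07 ± 0.16 (0.07 ± 0.10 with the replicate block and 0.16 ± 0.11 without both number 3 libraries). NF1 mutant libraries had 356, 244 and 270 IL6ST counts in DMSO and 50, 376 and 284 in VT107. The count of 50 came from VT107 library 1, and the log2 fold change was -0.08 ± 0.57 with that library and 0.39 ± 0.14 without it.

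IL15, the lymphocyte growth factor gene (ENSG00000164136, chromosome 4 from 142557752 to 142655140, plus strand), had 23, 35 and 16 counts in parental cells in DMSO and 48, 40 and 67 in VT107. These are 1.90, 2.61 and 1.46 CPM and then 3.60, 3.22 and 5.04 CPM, so that all VT107 libraries lay above all DMSO libraries. IL15 was the only gene of the 9 tested whose parental groups did not overlap in this direction, which held for 2.82% of all genes tested, and none of the 9 lay apart in the lower direction (6.22% of all genes). Its log2 fold change was 1.04 ± 0.32 (SE, n = 3 per group) with or without the replicate block, and 0.71 ± 0.31 without both number 3 libraries. In NF1 mutant cells IL15 had 23, 10 and 12 counts in DMSO and 1, 31 and 17 in VT107, and it failed the filter there through the library with 1 count. After VT107 in NF1 mutant cells, IL33 and IL13RA2 were the genes of the 7 tested with all VT107 libraries above all DMSO libraries, which held for 6.66% of all genes tested, and none of the 7 lay apart in the lower direction (9.18% of all genes).

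IL4R and IL13RA1 encode the chains of the signalling receptor of IL4 and IL13. IL4R (ENSG00000077238, chromosome 16 from 27325247 to 27376099, plus strand) had 285, 335 and 413 counts in parental cells in DMSO and 375, 314 and 833 in VT107. Library 3 was the highest of both groups, at 37.7 and 62.7 CPM against 23.6 to 28.1 CPM in the others, and the log2 fold change was 0.47 ± 0.38 (SE, n = 3 per group). The VT107 to DMSO ratio by number was 1.19, 1.01 and 1.66. With the replicate block the log2 fold change was 0.41 ± 0.13, without both number 3 libraries 0.26 ± 0.12, and without VT107 library 3 alone, which leaves the numbers unbalanced, -0.03 ± 0.26. In NF1 mutant cells IL4R had 74, 78 and 70 counts in DMSO and 61, 88 and 46 in VT107, a log2 fold change of 0.04 ± 0.27 (0.02 ± 0.22 without VT107 library 1).

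IL13RA1 (ENSG00000131724, chromosome X from 117861535 to 117928502, plus strand) was the steadiest of these genes between groups. It had 573, 586 and 403 counts in parental DMSO, 594, 470 and 511 in parental VT107, 256, 179 and 189 in NF1 mutant DMSO and 125, 243 and 147 in NF1 mutant VT107. Group means lay between 40.3 and 44.5 CPM. The log2 fold change after VT107 was -0.02 ± 0.16 in parental cells (-0.02 ± 0.10 with the replicate block and -0.03 ± 0.11 without both number 3 libraries) and -0.04 ± 0.24 in NF1 mutant cells (0.09 ± 0.15 without VT107 library 1). The receptor chain that signals and the decoy chain of IL13 had different values after VT107 in the same libraries (log2 -0.02 and 1.85 in parental cells). That contrast between the genes was not tested.

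**Figure D2:**
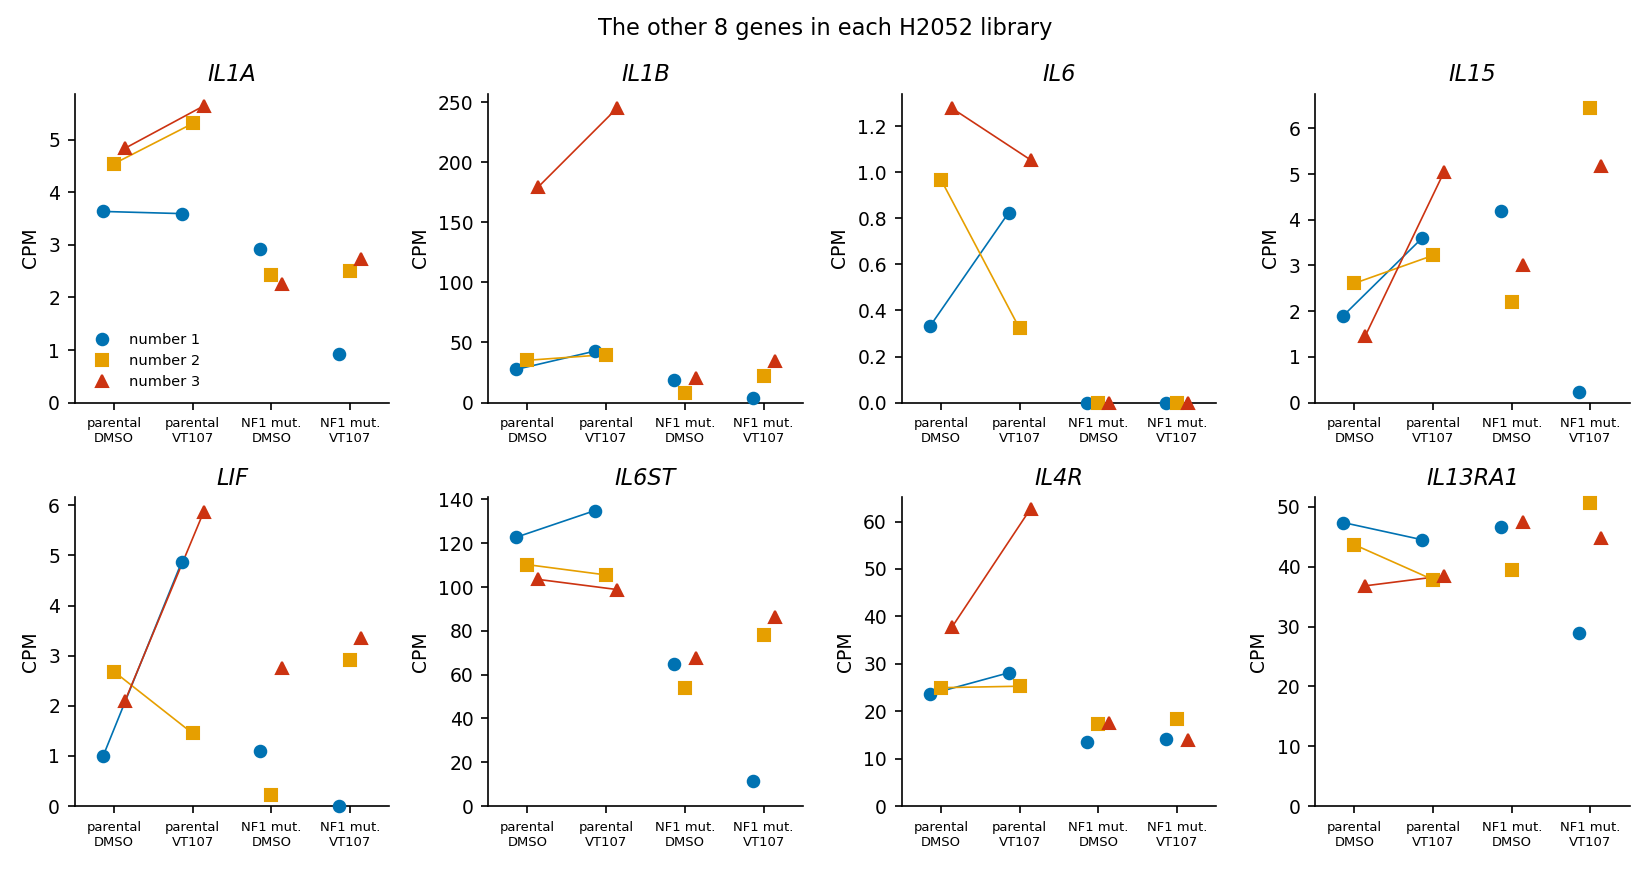
CPM of IL1A, IL1B, IL6, IL15, LIF, IL6ST, IL4R and IL13RA1 in each of the 12 H2052 libraries on axes that start at 0, with 1 point per library, colour and shape for the library number, and lines joining parental libraries of the same number. IL1B and IL4R are highest in parental libraries 3 (180 and 245 CPM, 37.7 and 62.7 CPM), IL6 is at 0 in all NF1 mutant libraries, and IL6ST and IL15 are low in NF1 mutant VT107 library 1 (11.6 and 0.23 CPM).

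The second question was how loss of NF1 went together with the level of these genes before the drug. In DMSO, IL33, IL1A, IL1B, IL6ST and IL4R were lower in every NF1 mutant library than in every parental library, which is 5 of the 8 tested (23.5% of all genes tested lay apart in this direction), and IL6, which was not tested, went from 31 counts over 3 parental libraries to 0. None of the 8 lay apart in the other direction (20.9% of all genes). edgeR called 3420 genes (27.4%) of 12475, with 1557 higher (12.5%) and 1863 lower (14.9%), and among the genes of interest IL1B, IL6ST and IL4R were called lower and none higher.

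IL6ST went from 112 ± 9.79 CPM in parental to 62.1 ± 7.30 CPM in NF1 mutant cells (SD, n = 3 each). Its log2 fold change was -0.82 ± 0.13 (SE). IL4R went from 28.7 ± 7.80 to 16.1 ± 2.26 CPM, a log2 fold change of -0.81 ± 0.24. For IL1B the values were 80.8 ± 85.7 and 15.8 ± 6.65 CPM, with a log2 fold change of -2.35 ± 0.72. Parental DMSO library 3 made up most of the IL1B mean, and the log2 fold change was -0.95 ± 0.21 without it. For IL33 the log2 fold change was -3.38 ± 1.16 with parental DMSO library 3 and -0.92 ± 0.32 without it. Of the rest, IL1A had a log2 fold change of -0.73 ± 0.29, IL13RA2 of 0.54 ± 0.44, IL15 of 0.69 ± 0.35 and IL13RA1 of 0.10 ± 0.15. Without parental DMSO library 3 these were -0.63 ± 0.31, 0.20 ± 0.31, 0.54 ± 0.35 and 0.01 ± 0.12, and those of IL6ST and IL4R were -0.86 ± 0.11 and -0.56 ± 0.16. The IL6ST call held without any 1 of the 6 libraries. IL1B and IL4R were not called when any 1 of the NF1 mutant DMSO libraries was left out, and IL33 was called when any 1 of the parental DMSO libraries was left out.

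**Figure D3:**
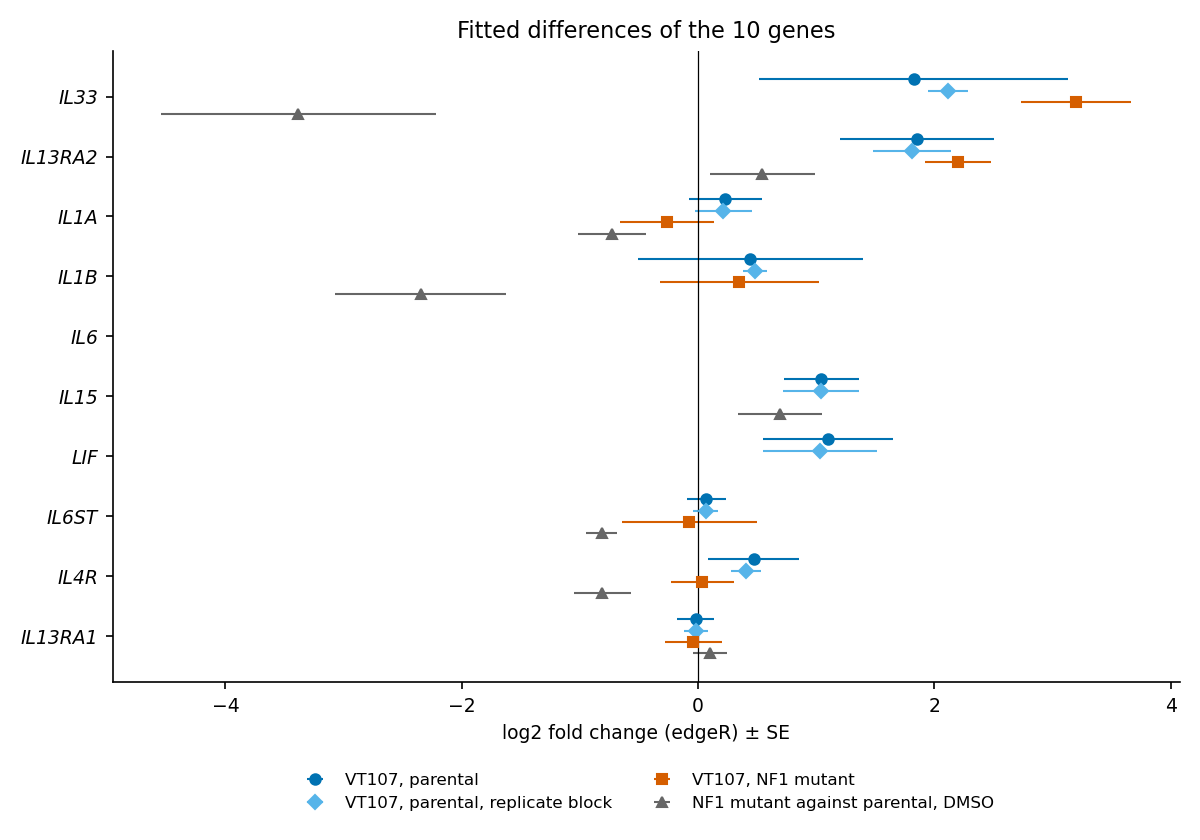
Fitted log2 fold changes of the 10 genes by edgeR with standard errors as bars, for VT107 against DMSO in parental cells without and with the replicate block, VT107 against DMSO in NF1 mutant cells, and NF1 mutant against parental cells in DMSO, with no point where a gene failed the filter. IL33 and IL13RA2 lie to the right of 0 after VT107 in both kinds of cells (log2 1.82 and 1.85 in parental, 3.20 and 2.20 in NF1 mutant cells), and IL6 has no point.

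Inflammatory RNA differed between library numbers as well as between groups. A list of 23 NF-kB and inflammatory genes, 22 of which have a row, summed to 574 CPM in parental DMSO library 3 and 605 CPM in VT107 library 3, against 371 to 476 CPM in the other 4 parental libraries. Its genes did not move as one: SOD2 gave 131 and 156 CPM in parental libraries 3 against 66.4 to 86.6 CPM in the others, but NFKBIA, the inhibitor of NF-kB, gave 42.2 and 47.1 against 64.9 to 87.7 CPM, and NFKBIZ was also lowest there. CXCL5, CSF2, TNF and CSF3 were at 0 in both parental groups. In the NF1 mutant its sum was 291 to 335 CPM under DMSO, 331 and 398 CPM in VT107 libraries 2 and 3 and 153 CPM in VT107 library 1. None of the genes of interest is on that list. After VT107 in parental cells, without the block, 0 of its 15 tested genes were called (0% of all genes tested). Between NF1 mutant and parental cells in DMSO 0 of 13 were called higher (12.5% of all genes tested) and 6 lower (14.9%).

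Summed markers of other cell types differed between libraries as well. The 14 leukocyte markers summed to 31.5 and 42.7 CPM in parental libraries 3, 13.6 to 19.3 CPM in the other parental libraries, 23.5 to 29.8 CPM in NF1 mutant DMSO and 31.7 to 48.7 CPM in NF1 mutant VT107, where library 1 had the highest leukocyte sum and the lowest NF-kB sum. In every library most of the leukocyte sum came from CORO1A and CD68. These gave 14.3 and 9.04 CPM in parental DMSO library 3 and 22.2 and 21.3 CPM in NF1 mutant VT107 library 1. CD3E, CD163 and TYROBP were at 0 in all 12 libraries and PTPRC in 3 of the 4 groups. CD74, a gene also induced in other cells, gave 5.02 and 7.08 CPM in parental libraries 3. Fibroblast markers summed to 256 and 403 CPM in parental libraries 3 against 149 to 201 CPM in the other parental libraries. Endothelial markers summed to 12.5 and 16 against 24.5 to 32.4 CPM, most of it from TIE1 (11.1 and 15.1 CPM in parental libraries 3). The mesothelial sum was 2719 and 2582 against 1382 to 1730 CPM, most of it from the keratin gene KRT19 (2279 and 2206 CPM), while WT1 (34.9 and 28.2 against 39.0 to 44.3 CPM) and BNC1 (14.4 and 7.83 against 15.2 to 24.8 CPM) were lower there. IL33, IL1B and IL4R were also highest in parental libraries 3, and the part of these markers in their values was not tested.

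**Figure D4:**
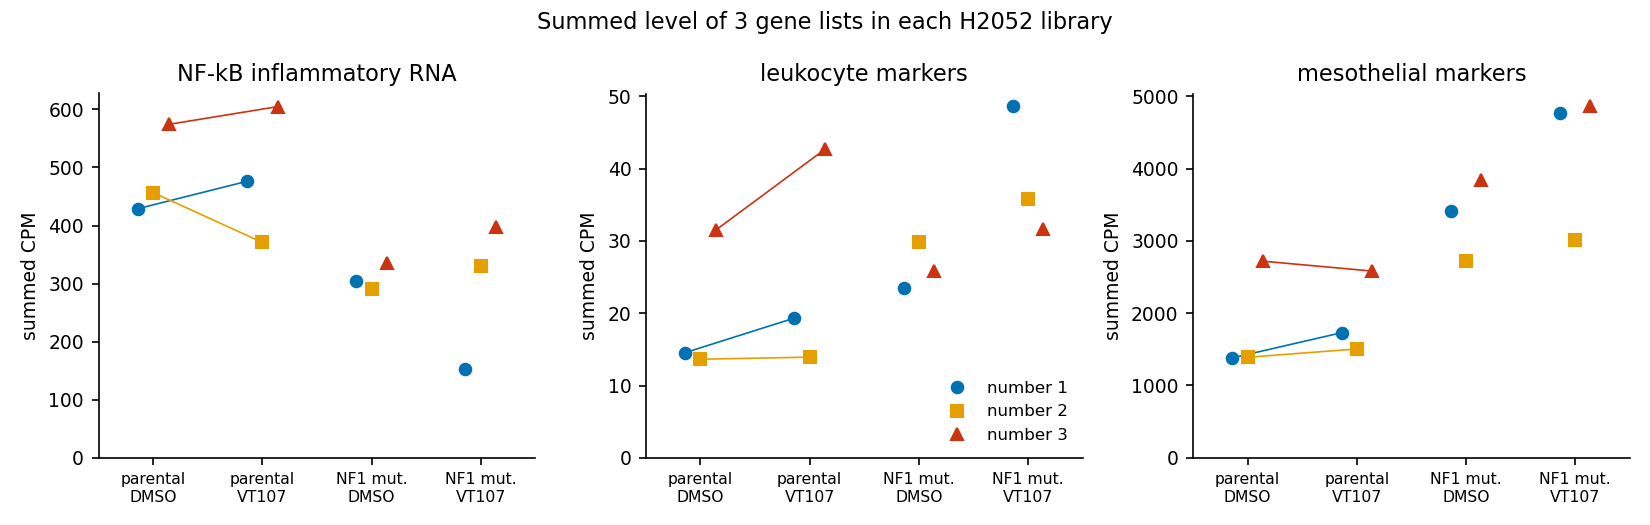
Summed CPM of the NF-kB and inflammatory list, the leukocyte markers and the mesothelial markers in each of the 12 H2052 libraries on axes that start at 0, with 1 point per library, colour and shape for the library number, and lines joining parental libraries of the same number. Parental libraries 3 are the highest parental libraries in all 3 panels, and NF1 mutant VT107 library 1 is the lowest for the NF-kB list (153 CPM).

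The wider pathway was read from 70 further genes of the IL1, IL6, IL4/IL13 and IL15 systems. They were listed with earlier results of these data known, so their p-values in H2052 are descriptive. After VT107 in parental cells 36 were tested, 0 were called without the block (2 had an unadjusted p under 0.05), and their median log2 fold change was -0.02 against 0.01 over all genes tested. With the replicate block SIGIRR was called higher and IL18 lower. SIGIRR, a receptor that dampens IL1 signalling, had 30.4, 26.2 and 111 CPM in DMSO and 40.0, 31.4 and 204 CPM in VT107, with a log2 fold change of 0.59 ± 0.12 (adjusted p = 0.0468, edgeR with the block). IL18, an IL1 family cytokine, fell from 48.5, 49.6 and 35.9 CPM to 28.9, 28.1 and 22.3 CPM, with a log2 fold change of -0.69 ± 0.11 (adjusted p = 0.0221, edgeR with the block). Within each number SIGIRR was higher and IL18 lower in VT107. Without VT107 library 3 and with no block, the log2 fold change of SIGIRR turned to -0.59 ± 0.63 and that of IL18 was -0.56 ± 0.19. Under the block, both calls were lost without number 1 (adjusted p = 0.137 and 0.14 by edgeR) and without number 3 (adjusted p = 0.256 and 0.122 by edgeR). In NF1 mutant cells 30 were tested and 0 called (4 had an unadjusted p under 0.05), and in the test of the difference of responses 28 were tested and 0 called (0 had an unadjusted p under 0.05). IL7R, the IL7 receptor chain, had 67.6, 68.0 and 58.2 CPM in NF1 mutant DMSO and 15.1, 43.3 and 25.6 CPM in VT107. Its log2 fold change there was -1.16 ± 0.34, and it was not called by edgeR without a block. IL7R was called lower there only without VT107 library 1 (log2 -0.90 ± 0.19) and by voomWithQualityWeights (log2 -1.10 ± 0.20).

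Between NF1 mutant and parental cells in DMSO, 34 of the 70 were tested, 3 were called higher (against 12.5% of all genes tested) and 5 lower (against 14.9%), which is near or below those shares, and their median log2 fold change was -0.19 against -0.01 over all genes tested. Among the 17 tested of the IL6 list, STAT3, JAK1 and PTPN11 fell and CLCF1 rose. STAT3, the main transcription factor of gp130 signalling, went from 144 ± 53.8 to 41.4 ± 3.84 CPM (SD, n = 3 in each group), and its log2 fold change was -1.77 ± 0.26 (SE, adjusted p = 0.00182 by edgeR). JAK1, the kinase bound to gp130, went from 81.1 ± 13.2 to 40.9 ± 1.73 CPM, a log2 fold change of -0.95 ± 0.15 (adjusted p = 0.00235 by edgeR). PTPN11, which encodes the phosphatase SHP2, had a log2 fold change of -0.79 ± 0.21 (adjusted p = 0.0236 by edgeR), and CLCF1, a gp130 ligand gene, had 1.21 ± 0.29 (adjusted p = 0.0159 by edgeR). In the IL15 list IL7R fell from 239 ± 79.6 to 64.6 ± 5.56 CPM, a log2 fold change of -1.84 ± 0.24 (adjusted p = 0.001 by edgeR), and STAT5B by 1.20 ± 0.31 on the log2 scale (adjusted p = 0.0195 by edgeR).

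STAT6, the transcription factor downstream of IL4R, rose by a log2 fold change of 0.64 ± 0.12 (SE, adjusted p = 0.00541 by edgeR), with group means of 66.1 and 101 CPM. IRAK1, a kinase of the IL1 receptor pathway, rose with a log2 fold change of 0.55 ± 0.12 (adjusted p = 0.0121 by edgeR). On the CPM scale IL4R was lower and STAT6 higher in the same NF1 mutant DMSO libraries. The log2 fold change of STAT3 was -1.41 ± 0.11 without parental DMSO library 3. STAT3, JAK1, IL7R and STAT6 kept their calls without any 1 of the 6 libraries. CLCF1 lost its call without NF1 mutant DMSO library 1 or 3 (adjusted p = 0.0731 and 0.0695 by edgeR) and IRAK1 without NF1 mutant DMSO library 1 or 2 (adjusted p = 0.0538 and 0.0554 by edgeR). PTPN11 and STAT5B lost theirs without any 1 of the libraries except parental DMSO library 3 (adjusted p = 0.0526 to 0.0962 by edgeR). In 1 fit of all 4 groups only IL7R and STAT3 of the 70 were called.

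**Figure D5:**
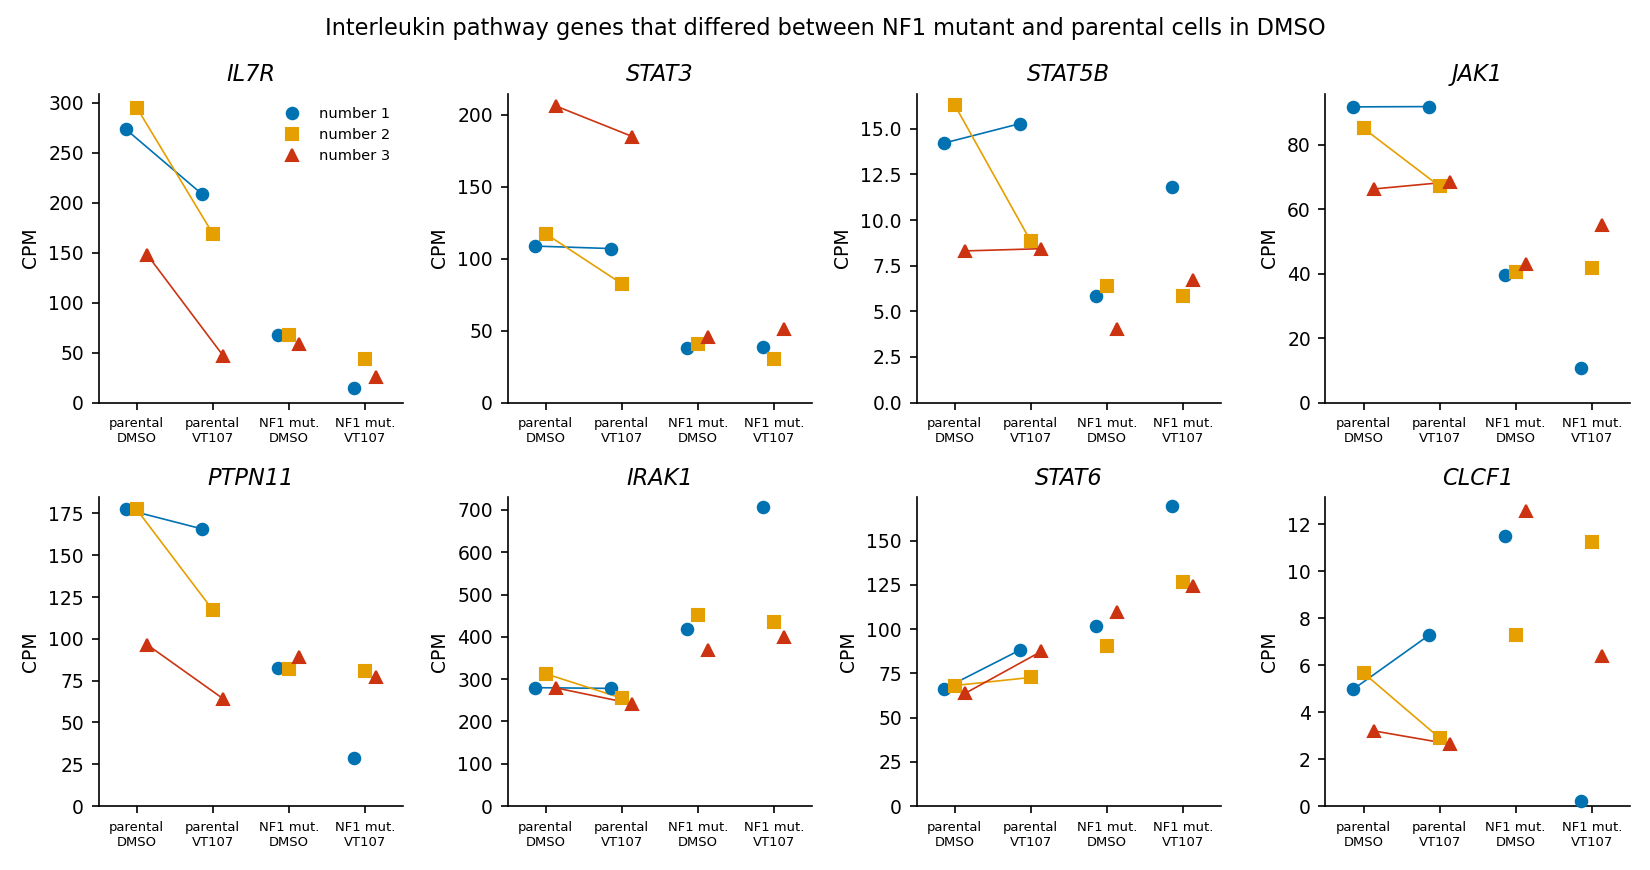
CPM of the 8 interleukin pathway genes called by edgeR between NF1 mutant and parental cells in DMSO, in each of the 12 H2052 libraries on axes that start at 0, with 1 point per library, colour and shape for the library number, and lines joining parental libraries of the same number. IL7R, STAT3, STAT5B, JAK1 and PTPN11 are lower and IRAK1, STAT6 and CLCF1 higher in NF1 mutant DMSO than in parental DMSO, with STAT3 at 41.4 ± 3.84 against 144 ± 53.8 CPM (SD, n = 3 each).

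Genes whose pattern was most like that of IL33 or IL13RA2 were ranked by Pearson's r of log2 CPM over the 12 libraries among 11937 genes, as a description without a p, since the libraries share groups, depth and the number 3 feature. For IL33 they were AP003419.11 (r = 0.969), STC1 (0.957), LINC00174 (0.956), RTEL1 (0.949) and TNFRSF6B (0.947). STC1 encodes the hormone stanniocalcin and TNFRSF6B a decoy receptor of TNF family ligands. RTEL1 and TNFRSF6B overlap in the genome, so their counts may not be independent. STC1 had a mean of 2.08 CPM in parental DMSO, 8.69 in parental VT107, 0.49 in NF1 mutant DMSO and 3.16 in NF1 mutant VT107, the same order as IL33 except for its middle groups. Over the 10 libraries without parental number 3, r with IL33 was 0.9 to 0.942 for these genes.

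For IL13RA2 the nearest genes were less alike. They were YPEL5 (r = 0.843), SLC26A11 (0.84), MAPK6 (0.835), RP4-794H19.1 (0.829) and SQLE (0.822), the last encoding squalene epoxidase of sterol synthesis and MAPK6 the kinase ERK3. Without parental number 3 their r was 0.744 to 0.847. IL33 and IL13RA2 themselves had r = 0.123 over the 12 libraries, while IL33 had 0.713 with IL1B and 0.732 with IL4R.

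NCI-H226 (H226), another pleural mesothelioma line, was treated in the same way (3 libraries per group, 1387223 to 1726786 gene counts each). Its counts appear to lie on the strand opposite to the genes. To check this, 31 pairs were taken in which a gene lies at least 90% inside another on the opposite strand. They were chosen so that in parental H2052 cells in DMSO the inner gene had at least 3000 counts and at least 20 times those of the outer. That the inner gene had more in 31 of 31 pairs there follows from this choice. In H226 the outer gene had more in 24 of 24 pairs with both rows. GAPDH, EEF1A1 and VIM had no row there and ACTB a mean of 4.33 counts. Levels in H226 are therefore not read as levels of the named genes. IL33 and IL13RA2 had no row. edgeR called 2501 of 12765 rows (19.6%), 1159 higher (9.08%) and 1342 lower (10.5%), a split that became 1445 and 1040 with no scaling factors. Of 6 rows of interest tested, LIF, at 30, 24 and 31 counts in DMSO and 11, 22 and 6 in VT107, was called lower (log2 -1.34 ± 0.37, SE, adjusted p = 0.0119 by edgeR), and its row cannot be told apart from MTMR3 and RP1-102K2.6 on the other strand. The LIF call was lost without VT107 library 1 (adjusted p = 0.0504 by edgeR) or 3 (adjusted p = 0.0839 by edgeR). Of the 70 further genes 24 were tested, and the rows that carry the names IL1R1, IRAK2, IL7, CASP1, STAT6 and STAT3 were called higher (6) and 0 lower. The CASP1 row lost its call without VT107 library 2 or 3 or DMSO library 2 (adjusted p = 0.0545 to 0.1 by edgeR), and the IRAK2 row without VT107 library 3 (adjusted p = 0.237 by edgeR).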

How the data were processed

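RNA from 12 H2052 and 6 H226 libraries was extracted with Trizol and sequenced as single-end 75-base reads, and the authors deposited raw read counts per gene (hg19, bcl2fastq 2.20.0.422 per the labels). For the aligner, counter, annotation and strand setting, the sources used here name none. The H226 table also holds a p-value, a false discovery rate and a log2 fold change from the authors' own DESeq comparison, as deposited, and none was used. The siRNA table has 16 columns that match no described sample and was not used. A replicate is a biological replicate according to the study's methods.

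Counts of rows with the same gene ID were added into 1 row (63 repeated rows in H2052 and 10 in H226). edgeR 4.0.16 in R 4.3.3 (quasi-likelihood test, TMM factors) was fitted to the groups compared, over genes that reached 0.5 CPM in each of its libraries, and a gene was called at a Benjamini-Hochberg adjusted p under 0.05. The fit was tested on simulated counts in which no single library stood apart, so that test does not cover the libraries that stand apart here. Deviations of same-numbered parental libraries correlated at 0.613, 0.488 and 0.795. Numbers 1 and 2 correlated about as well with each other (0.517 and 0.607), and number 3 correlated with either at -0.716 to -0.59. Deviations were taken from the group mean, so with library 3 far from it those of numbers 1 and 2 are alike by construction. The number sets library 3 apart in both parental groups. Whether it pairs numbers 1 and 2 cannot be read from these values. Blocked values of the genes of interest stand beside the others in parental cells. Alternatives were DESeq2 1.42.0, RLE factors, other filters, limma 3.58.1 voomWithQualityWeights, all groups in 1 fit, the replicate block, each library left out and, chosen after seeing the data, both parental number 3 libraries left out, also under the block, and each other parental number left out under the block.

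The genes and the lists were chosen with earlier results of these data known. The H2052 libraries were used to choose the genes, so no p is given for the genes of interest in H2052. The p-values printed for list genes in H2052 are descriptive. Genes named from the lists are those called, at most 8 with the largest change in each direction. Genes like IL33 or IL13RA2 are the 5 with the highest r of log2 CPM (prior count 2). IL7R in NF1 mutant cells was named after its values were seen. Depth was as given beside the results, and a group at 0 counts was set to a floor of 3 counts, which covers only the counting error of that group.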

Additional observations from a re-analysis of the deposited data

How the results depend on the processing

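In parental cells, where 0 genes were called without a block, DESeq2 called 32 genes, voomWithQualityWeights 18 and the fit with the replicate block 215, the last with 2 of the further cytokine system genes and 2 of the genes of interest. Leaving out both parental number 3 libraries gave 44 genes and 1 gene of interest (IL33). With the replicate block, leaving out number 1 gave 51 genes with 2 of interest, number 2 gave 1168 genes with 7 of the cytokine system and 6 of interest, and number 3 gave 27 genes with 1 of interest. These 3 fits had only 2 libraries per group and 1 residual degree of freedom, so nothing is read from their counts. IL15, IL1B, IL4R and LIF were called in parental cells only in the fit without number 2. Leaving out single parental libraries without the block gave 0 throughout. In NF1 mutant cells DESeq2 called 20 genes, 2 of interest, voomWithQualityWeights 164 genes, 1 of the cytokine system and 2 of interest, and all 4 groups in 1 fit 3 genes. Leaving out 1 library gave 0 to 198 genes, 0 to 1 of the cytokine system and 0 to 2 of interest, the high values without VT107 library 1. Between genotypes in DMSO the count without a filter was 5 of interest (IL1B, IL33, IL4R, IL6 and IL6ST). IL6 had 0 counts in every NF1 mutant DMSO library and was not tested with the filter. The main fit called 3 of the 8 genes of interest tested, against 27.4% of all genes. For the fit without a filter no share of all genes is given here, so nothing is read from its 5 calls. voomWithQualityWeights called 6551 genes with 17 of the cytokine system, and all 4 groups in 1 fit called 963 genes with 2 of the cytokine system and 0 of interest. Leaving out 1 library gave 1779 genes (without NF1 mutant DMSO library 1) to 6409 (without parental DMSO library 3), 4 to 18 of the cytokine system and 1 to 4 of interest. The numbers did not pair the NF1 mutant, genotype or H226 libraries, and with the replicate block 0, 2986 and 3257 genes were called there. In H226 leaving out 1 library gave 1646 genes (without VT107 library 3) to 2218, 4 to 7 of the cytokine system and 0 to 1 of interest. In the test of the difference of responses 0 genes were called when any 1 library was left out. The causes of these differences were not tested. Without parental VT107 library 3, with no block, the log2 fold changes of IL33 (-0.01), IL1B (-0.91), IL4R (-0.03) and SIGIRR (-0.59) were below 0. Each of these genes was called higher in parental cells in some fit with the block, IL1B and IL4R only in that without number 2. Depth limits the values of genes with few counts in NF1 mutant libraries, among them IL33 (8 to 14 counts in DMSO) and IL13RA2 (14 to 23).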
